A study of Mus musculus with 8 samples.

Results

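Gene expression in the normal tibialis anterior (TA) muscle of the mouse, a fast muscle of the lower hindlimb, was compared with that in the normal cerebellum on 4 of the 8 arrays of a study of spinocerebellar ataxia 17 (SCA17). The arrays were chosen by their labels alone: those labelled WT (wild type), 2 from muscle and 2 from cerebellum, numbered 95 and 96 in each tissue. The other 4 arrays came from the same tissues of SCA17 knock-in (KI) mice, numbered 94 and 97, and are used here as a second set in which to read the same tissue difference. SCA17 is a dominant ataxia caused by a polyglutamine expansion in TBP, the TATA-box-binding protein, and the labels describe the KI mice by that name alone. RNA of both genotypes came from mice aged 3 months that had no treatment named in the labels. The study text speaks of 3 mice per genotype, 2 arrays per group were analysed here, and no label says whether the arrays of a group came from separate animals. The p-values below therefore measure the spread between arrays, which may be technical. No source used here gives strain, sex or the length of the expanded tract.

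A fast muscle fibre is a single cell packed with sarcomeres, in which myosin thick filaments pull on actin thin filaments when calcium leaves the sarcoplasmic reticulum. It burns glycogen and fat and buffers its ATP with creatine phosphate. The cerebellum is made mostly of very small granule neurons, which excite the large inhibitory Purkinje cells, with Bergmann glia, oligodendrocytes and several kinds of inhibitory interneuron around them. Many proteins that both tissues need, such as enolase, creatine kinase, calcium pumps and sodium channels, are encoded by families of related genes (paralogues), of which different members serve muscle and brain.

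Values are log2 expression levels as deposited, 1 value per probe set and array, and 19938 genes were tested. The arrays of a tissue correlated over genes with r = 0.977 in muscle and r = 0.989 in cerebellum, against 0.838 to 0.866 between the tissues; genes are not independent replicates. The median SD between the 2 arrays of a tissue was 0.112 in muscle and 0.0885 in cerebellum. Array medians lay between 5.44 and 5.48, and no value exceeded 13.3. For a sense of the lower end of the scale, 1015 olfactory receptor genes, which serve smell in the nose, had array medians of 3.24 to 3.69 and 95th percentiles of 4.81 to 5.18. A gene is described as low in a tissue when both of its arrays were at or below that percentile of the same array, and a fold against a low value depends on the background of the array. Intensities of different probe sets are not on a common scale, so that differences between tissues, not levels, are compared between genes.

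Muscle and cerebellum differed in a large part of the genes. A gene was called when the limma fit over the 8 arrays gave a Benjamini-Hochberg adjusted p under 0.05 and the tissues differed by at least 2-fold. By this rule 4082 of 19938 genes (20.5%) were called, 1650 (8.28%) higher in muscle and 2432 (12.2%) higher in cerebellum. All 4082 had no overlap between the arrays of the tissues, as had 15579 of all genes, and 10293 passed the adjusted p whatever their fold. The largest differences lay on the muscle side: 33 genes were at least 64-fold higher in muscle and 9 in cerebellum, while at 8-fold and above the counts were 232 and 412. Of the genes called higher in muscle 306 were low in cerebellum, and of those called higher in cerebellum 598 were low in muscle. Of the olfactory receptor genes 7 were called higher in muscle and 0 higher in cerebellum (0.69% either way). The median difference of all genes was 0.14 towards muscle, and 10 housekeeping genes had a median difference of 0.29 with no call among them. When each array was centred on the housekeeping genes the median of all genes became -0.14, and the share of calls that were higher in muscle went from 40.4% to 25.6%. Differences near 2-fold should be read with this shift in mind. In whole tissue, fewer cells of a type and less RNA per cell cannot be told apart.

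The genes with the largest difference towards muscle were parts of the contractile machine and of its fuel supply. Myh1, the heavy chain of fast type 2X myosin, was at 11.82 and 12.01 in muscle and at 3.82 and 3.99 in cerebellum, a difference of 8.01 ± 0.18 (log2 ± standard error of the fit, 2 arrays per tissue; adjusted p = 4.44e-09), or 258-fold. Car3, carbonic anhydrase 3, followed with 12.11 and 12.26 against 4.16 and 4.66 (219-fold). Both genes were low in cerebellum and near the top of the scale in muscle. Xirp2, an actin-binding repeat protein of the costamere (184-fold), Casq1, the calcium store protein of the fast sarcoplasmic reticulum (179-fold), and Myl1, the fast essential light chain (177-fold), came next. The others of the 12 largest were Myot and Myoz1 of the Z-disc (171-fold and 156-fold), the calcium pump Atp2a1 (153-fold), Ppp1r3a, which targets a phosphatase to glycogen (151-fold), the type 2B myosin Myh4 (134-fold), the kinase Mylk4 (132-fold) and Ckmt2, the sarcomeric mitochondrial creatine kinase (123-fold). The adjusted p of these 12 genes in the limma fit ran from 4.39e-09 for Casq1 and Myot to 1.40e-08 for Myh4.

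On the cerebellar side the largest difference was that of Gabra6, the GABA receptor subunit of granule cells. It was at 11.33 and 11.11 in cerebellum and at 3.70 and 4.05 in muscle, a difference of -7.34 ± 0.15 (162-fold; adjusted p = 4.39e-09). Neurod1, a transcription factor of granule neurons, was at 10.93 and 10.81 against 3.83 and 4.02 (123-fold). Calb1, the calcium buffer calbindin of Purkinje cells, was at 11.54 and 11.27 against 4.99 and 4.76 (92.3-fold). The calcium sensor Vsnl1 (89.2-fold), the synaptic SNARE protein Snap25 (76.4-fold), the aldolase Aldoc (74.6-fold) and the calretinin gene Calb2 (70.0-fold) followed. Elmod1, Sphkap, Kcnip4, Rit2 and Cbln3, a partner of the granule cell protein cerebellin 1, closed the 12 with 60.7-fold to 68.8-fold. Snap25 had the largest standard error of the 24 genes (-6.26 ± 0.45, adjusted p = 2.67e-06 in the limma fit). That error is pooled over the 4 groups of the fit. The widest pair of Snap25 was KI muscle, at 7.28 and 5.57, beside 5.60 and 6.32 in WT muscle.

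**Figure D1:**
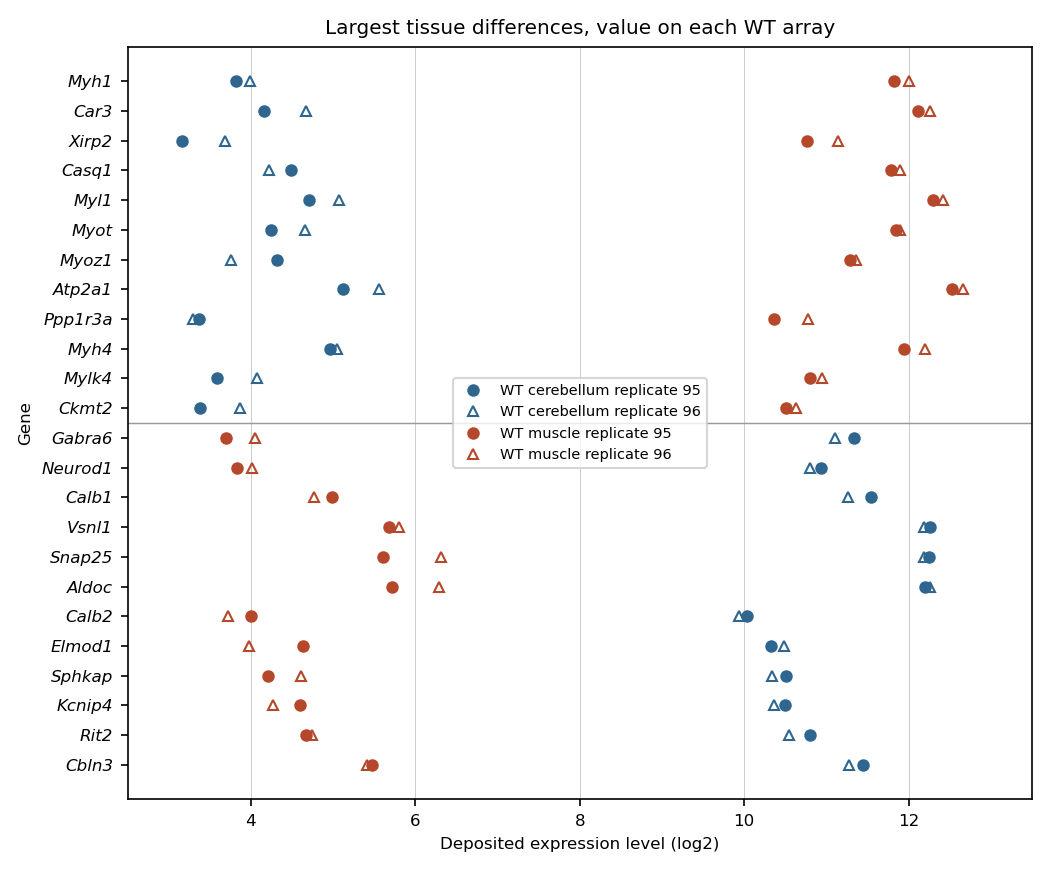
The deposited log2 level of each WT array is plotted for the 12 genes with the largest difference each way, red for muscle and blue for cerebellum, circles for the arrays numbered 95 and triangles for those numbered 96. In every one of these 24 genes the pairs of a tissue lie close together and far from the other tissue, from Myh1 (11.82 and 12.01 against 3.82 and 3.99) to Cbln3 (11.45 and 11.28 against 5.47 and 5.41).

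The promoters of these genes were set side by side in RefSeq windows (build GRCm38.p6) from 250 bases before to 50 bases after each annotated start, of which 15563 of the tested genes had 19116. A gene with several starts has several windows, which can overlap. Searched on both strands, the TATA box core TATAAA stood in 11.5% of all windows, in 22.6% of the 221 windows of genes at least 8-fold higher in muscle and in 7.74% of the 478 windows of genes at least 8-fold higher in cerebellum. At 32-fold the shares were 27.6% of 58 and 9.33% of 75 windows. Over the windows of all called genes, at least 2-fold, they were 10.8% towards muscle, just below the share of all windows, and 7.13% towards cerebellum. On the strand of the gene and with its first base between -40 and -20, TATAAA was found in 2.32% of all windows, 7.69% of the windows at 8-fold towards muscle and 1.05% of those towards cerebellum, and at 2-fold in 2.71% and 0.881%. The E-box CAGCTG, which is the core bound by MyoD and its relatives, stood in 16.3% of all windows, in 30.8% at 8-fold and 46.6% at 32-fold towards muscle, and in 18.8% and 20.0% towards cerebellum; at 2-fold the shares were 19.8% and 16.3%. CTAAAAA, a run found in sites of MEF2 factors, stood in 2.99% of all windows in 3.07% towards muscle and 2.38% towards cerebellum at 2-fold and in 5.88% and 2.51% at 8-fold. The GC box GGGCGG stood in 49.3% of all windows, in 53.7% at 2-fold towards muscle and 58.5% towards cerebellum, in 39.4% and 49.4% at 8-fold and in 27.6% and 42.7% at 32-fold. For TATAAA and GGGCGG the position of the muscle genes relative to all windows thus depended on the fold at which they were taken. The median GC content of the windows was 57.7% over all genes, 59.0% at 2-fold and 55.0% at 8-fold towards muscle, and 61.2% and 59.0% towards cerebellum, and its part in these shares was not tested. A match of letters describes the sequence and is not a binding site.

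The 150 bases before the start of 6 genes show what the shares describe, in lower case with 1 motif of each gene in capitals. These called genes were picked because they hold their motif there, Ckb by name, so that they are examples and no test. Ppp1r3a (CAGCTG) and Acta1 (TATAAA), picked in the same way, are not printed. The capitals mark TATAAA in Myh1 and Ckb, CAGCTG in Myh4 and Cox8b, and GGGCGG, which reads CCGCCC on the opposite strand, in Neurod1 and Vsnl1. Myh4 also holds TATAAA, in lower case, from -31.
Myh1, chr11:67199952-67200101 (plus strand): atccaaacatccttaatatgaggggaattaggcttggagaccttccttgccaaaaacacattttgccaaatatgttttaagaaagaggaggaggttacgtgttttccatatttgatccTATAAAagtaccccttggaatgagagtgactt
Myh4, chr11:67237662-67237811 (plus strand): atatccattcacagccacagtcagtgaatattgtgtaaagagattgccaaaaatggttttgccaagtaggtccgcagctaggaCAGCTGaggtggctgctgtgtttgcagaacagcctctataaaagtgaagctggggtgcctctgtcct
Cox8b, chr7:140900447-140900596 (minus strand): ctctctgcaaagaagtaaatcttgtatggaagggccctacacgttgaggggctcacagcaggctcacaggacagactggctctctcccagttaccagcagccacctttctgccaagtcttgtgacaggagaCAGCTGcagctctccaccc
Ckb, chr12:111672339-111672488 (minus strand): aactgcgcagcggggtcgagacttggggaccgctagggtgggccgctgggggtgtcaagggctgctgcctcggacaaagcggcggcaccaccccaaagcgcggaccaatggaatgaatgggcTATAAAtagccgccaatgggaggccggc
Neurod1, chr2:79456637-79456786 (minus strand): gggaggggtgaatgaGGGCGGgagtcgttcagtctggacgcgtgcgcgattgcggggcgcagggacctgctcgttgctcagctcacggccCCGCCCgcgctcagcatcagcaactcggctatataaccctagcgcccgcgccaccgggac
Vsnl1, chr12:11436579-11436728 (minus strand): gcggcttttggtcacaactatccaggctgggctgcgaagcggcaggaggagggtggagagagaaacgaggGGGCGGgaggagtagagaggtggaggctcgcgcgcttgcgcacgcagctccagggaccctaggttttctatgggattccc
TATAAA began at -32 in Myh1, the most muscle-biased gene, and at -28 in Ckb, the brain creatine kinase, which was 21.8-fold higher in cerebellum. Myh1 was picked for holding the motif and Ckb by name, and how often the motif stood on each side is given by the shares above. CAGCTG began at -67 in Myh4 and at -19 in Cox8b, and the 2 GC boxes of Neurod1 began at -135 and -60.

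Genes of the sarcomere were called higher in muscle nearly throughout. Of 17 thick filament and M-band genes 15 were called (median difference 5.73), of 16 thin filament genes 12 (4.83) and of 20 Z-disc and costamere genes 20 (4.96), and none of the 53 was called higher in cerebellum. Ttn, which encodes the giant spring titin, was at 11.55 and 11.70 in muscle and 4.61 and 4.82 in cerebellum (120-fold). Acta1, skeletal actin, was at 12.36 and 12.33 against 5.77 and 5.96 (88.9-fold), and Tnnt3, fast troponin T, was 84.4-fold higher in muscle. With Ckm (75.1-fold) and Mylpf (52.9-fold) the markers of the fibre were high in both muscle arrays and apart from both cerebellum arrays. Actn3, the actinin of fast fibres, differed by 6.84 ± 0.13, and Des, the desmin filament that ties Z-discs together, by 6.33 ± 0.15. Synpo2l (3.10), Myoz3 (2.66), Csrp3 (2.31) and Cryab (1.65) gave smaller differences within the Z-disc list. Sequences of the sarcomeric actins, and of the fast myosins on chromosome 11, are closely alike. The values of Actc1 (6.45), Myh2 (6.08) and Myh8 (1.47) are therefore uncertain, since the probe sequences were not used here.

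Slow-fibre forms of several of these proteins showed smaller differences than the fast forms. Myh7, the slow myosin heavy chain, was at 6.48 and 5.81 in muscle and 5.24 and 4.95 in cerebellum (1.05 ± 0.25; adjusted p = 0.00598), and its call was lost in 3 of 13 alternative analyses. The slow light chain Myl2 differed by 1.14 ± 0.17, a call lost in 2. Tnnt1 (0.81), Tnni1 (0.77) and Tnnc1 (0.48, adjusted p = 0.104), the slow troponins, were not called. Tnnt3, Tnni2 (5.11) and Tnnc2 (5.76), their fast counterparts, were. Myl3, the slow essential light chain, stood between with 3.35 ± 0.31, and its muscle arrays were far apart, at 8.95 and 7.77. Other slow forms were well apart from the cerebellum: Mybpc1, slow myosin binding protein C, differed by 3.92 beside 6.83 for the fast Mybpc2, and Myoz2, the calsarcin of slow fibres, by 5.15 beside 7.28 for Myoz1. Sln, the small inhibitor of the calcium pump, was low in both tissues, at 4.85 and 4.55 in muscle and 4.48 and 4.45 in cerebellum.

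The calcium release machinery was higher in muscle in 16 of 19 genes (median 3.22). Casq1 was at 11.79 and 11.89 in muscle and 4.49 and 4.22 in cerebellum. Atp2a1, the pump that refills the reticulum, was at 12.53 and 12.66 against 5.12 and 5.56. Ryr1, the release channel, was at 11.00 and 11.16 against 6.27 and 6.57, and Cacna1s, the voltage sensor that opens it, at 10.23 and 10.37 against 5.20 and 5.13. The tissues did not overlap in any of the 4 genes. Srl (5.42), the triadin gene Trdn (5.08), Stac3 (3.88), the junctophilin Jph1 (3.21) and the chloride channel Clcn1 (2.86) were called as well. Asph (-0.90), Fkbp1a (-0.31) and Sln (0.23) were not.

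Genes of fuel use were called higher in muscle in 20 of 20 for glycogen and glycolysis of muscle and 19 of 19 for fatty acid uptake and oxidation. The first list was written for muscle and also holds Ckm, Ckmt2 and Ampd1, so that its count does not describe glycolysis as a whole. Related genes outside it, such as Eno2, Pgam1 and Aldoc, were called higher in cerebellum and are given with the families below. Within the glycolysis list the differences ran from 6.95 for Ckmt2 and 6.70 for Ampd1, the muscle AMP deaminase, to 1.28 for Pkm, pyruvate kinase. Pygm, the phosphorylase that breaks down glycogen, was at 12.07 and 12.13 in muscle and 7.88 and 7.97 in cerebellum (18.1-fold). Hk2, the insulin-responsive hexokinase, was 11.0-fold higher. Among the fat genes Cd36, the fatty acid translocase, was at 10.31 and 10.38 against 3.55 and 3.82 (101-fold). Lpl, which frees fatty acids from lipoproteins (32.1-fold), the uncoupling protein Ucp3 (25.4-fold) and Pdk4, the kinase that shuts off pyruvate oxidation (23.9-fold), followed. The enzymes of beta-oxidation proper differed less, from 3.14 for Acaa2 to 1.46 for Echs1. Pdk4 and Ucp3 had wide muscle pairs, 10.61 and 11.15 for Pdk4 and 8.58 and 9.40 for Ucp3, still clear of the cerebellum. Mb, myoglobin, which stores oxygen in the fibre, was 60.1-fold higher.

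The respiratory chain was higher in muscle in 21 of 29 genes and higher in cerebellum in 1, with a median of 1.40. Most called subunits lay between 1.04 (Cox5b) and 2.19 (Sdhb), and Atp5b (0.33) and Sdha (0.85) were not called. The exceptions in size were 3 subunits of cytochrome oxidase with forms of their own in heart and skeletal muscle: Cox8b (6.46), Cox6a2 (5.33) and Cox7a1 (5.08). Cox8b was at 11.39 and 11.27 in muscle and 4.69 and 5.04 in cerebellum. The gene of the list called the other way was Cox6a1 (-2.06 ± 0.11), the widely expressed form of the Cox6a2 subunit, and its arrays did not overlap between the tissues. Outside the list, Cox8a of the Cox8b family was also called higher in cerebellum (-1.78), and Cox7a2 of the Cox7a1 family (0.36) was not called.

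At the neuromuscular junction 5 of 15 genes were called higher in muscle and 1, Prkar1a, higher in cerebellum. They were the adult acetylcholine receptor subunits Chrna1 (3.21), Chrnb1 (3.19) and Chrne (2.57), the clustering protein Rapsn (2.23) and the kinase Musk (2.05). Chrna1 was at 7.15 and 7.33 in muscle and 3.60 and 4.46 in cerebellum. The fetal subunit Chrng (0.18, adjusted p = 0.206) was not called, nor were Chrnd (0.70), Lrp4 (0.42) and Ache (-0.20). Of 18 myokines, factors secreted by muscle, 7 were called, with Mstn, which encodes the growth inhibitor myostatin, at 8.30 and 8.03 against 4.28 and 3.66 (18.3-fold) and Ostn (2.28) and Il15 (1.95) after it; centred on housekeeping genes, 4 of the 18 were called.

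Of 19 myogenic and muscle transcription regulators 12 were called higher in muscle and none higher in cerebellum. Myf6, the myogenic factor kept on in adult fibres, was at 10.25 and 10.15 in muscle and 3.99 and 4.05 in cerebellum (72.4-fold). Tbx15 (42.5-fold) and the methyltransferase Smyd1 (33.1-fold) were next, and Mef2c (3.04), Tead1 (3.04) and Eya4 (3.56) followed. Myod1, at 6.94 and 6.59 against 5.37 and 5.31, differed by 1.43 ± 0.14 and Myf5 by 1.23. Myog (0.80) and Pax7 (0.28, adjusted p = 0.234), the factor of satellite cells, were not called.

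A second set of regulators marks position along the body and the limb. Hox genes lie in 4 clusters, and those of higher paralogue number are used nearer the tail and the limb tip. Of 40 genes in the list 12, or 30.0% beside 8.28% of all genes, were called higher in muscle and none higher in cerebellum, and 14 were low in both tissues. Hoxc10, a gene of hindlimb level, was at 8.07 and 7.64 in muscle and 4.42 and 4.21 in cerebellum (11.6-fold; 3.54 ± 0.18). Hoxa9 (1.91) and Hoxa10 (1.90) were next, then Hoxc9 (1.62) and Hoxc6 (1.61). By cluster, 6 of 9 Hoxc, 4 of 10 Hoxa and 2 of 9 Hoxd genes were called, and 0 of 9 Hoxb genes, whose differences ran from 0.17 to 0.67. The calls of Hoxc11 (1.01) and Hoxd12 (1.04) were lost in 4 and 3 of 13 alternative analyses. When the arrays were centred on housekeeping genes, 7 of the 40 genes were called, 3 in Hoxc, 3 in Hoxa and 1 in Hoxd. Pitx1 (0.64) and Tbx4 (0.87), regulators of the hindlimb, and Tbx5 (0.88), of the forelimb, were not called.

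**Figure D2:**
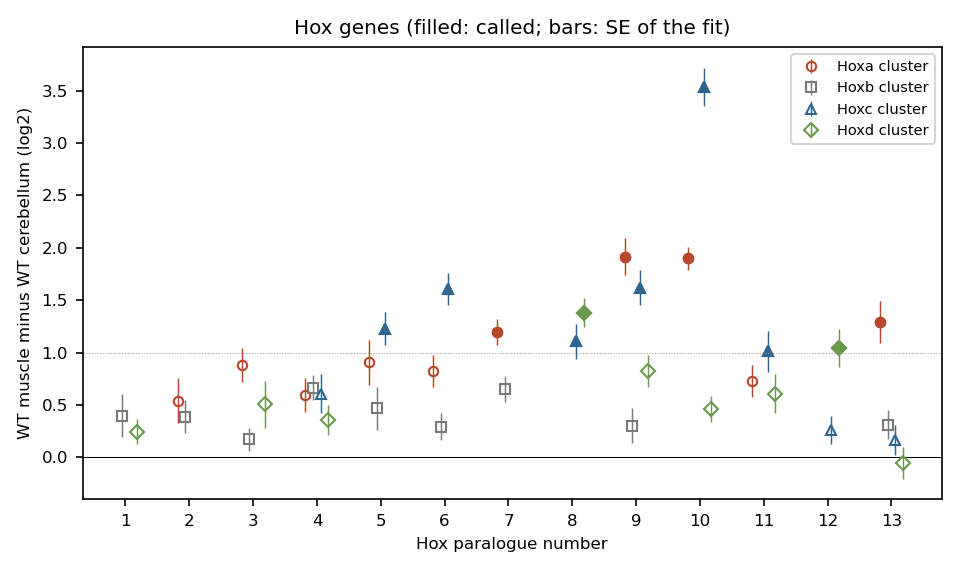
The difference between WT muscle and WT cerebellum (log2) of each Hox gene is plotted against its paralogue number, with a colour and shape for each cluster, filled where the gene was called, and the standard error of the fit as a bar. Hoxc10 stands at 3.54, the next genes are Hoxa9 and Hoxa10 at 1.91 and 1.90, and the grey squares of Hoxb stay at or below 0.67.

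Cerebellar neurons were represented by lists in which nearly every gene was called higher in cerebellum. It was 20 of 20 for granule cells (median -4.12), 17 of 17 for Purkinje cells (-3.46) and 9 of 12 for inhibitory interneurons (-2.48), against 12.2% of all genes. Beside Gabra6 and Neurod1, the granule list held Cbln3 (-5.92), Zic1 (-5.48), Cbln1 (-4.78) and the vesicular glutamate transporter Slc17a7 (-3.85). Zic1 was at 10.82 and 10.56 in cerebellum and 5.22 and 5.19 in muscle. In the Purkinje list Calb1 was followed by Arhgef33 (-5.80), Ppp1r17 (-5.66), Pcp4 (-5.37) and Car8 (-5.21). Ppp1r17 was at 9.33 and 9.44 in cerebellum and low in muscle, at 3.81 and 3.64. Pcp2, a classic Purkinje marker, was at 8.53 and 8.84 against 5.39 and 5.64 (-3.17 ± 0.18). Gad1 (-3.40) and Gad2 (-4.23), the enzymes that make GABA, were called, and the vesicular GABA transporter Slc32a1 (-0.92) fell short of 2-fold.

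Synaptic genes stood on the cerebellar side as well: 19 of 21 genes of vesicle release and 29 of 32 glutamate and GABA receptor genes were called higher in cerebellum. Syt1, the calcium sensor of release, was at 10.62 and 10.38 in cerebellum and 4.96 and 4.99 in muscle (45.9-fold). Sv2b (-5.42), of the vesicle membrane, and Cplx1 (-4.91), a clamp of fusion, were also called. Gria2, the AMPA receptor subunit that blocks calcium entry, was at 9.47 and 9.33 against 3.79 and 3.83 (48.2-fold). The AMPA subunits Gria4 (-5.55), Gria1 (-5.26) and Gria3 (-4.32) and the GABA subunit Gabrb2 (-5.53) were close to it. No receptor gene was called higher in muscle, and Stx1a (0.34, adjusted p = 0.0844) was the release gene with a positive difference.

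Of 37 hindbrain and neuronal transcription regulators 19 were called higher in cerebellum and 0 higher in muscle. After Neurod1, Zic1 and Zic2 (-5.44) came En2 (-4.22), which patterns the midbrain and hindbrain, Etv1 (-3.92) and Pax6 (-3.65). En2 was at 8.89 and 8.80 in cerebellum and low in muscle, at 4.40 and 4.85. Factors that act early in the cerebellum's development were among those not called: Atoh1 (0.38), Gbx2 (0.36), En1 (-0.12, adjusted p = 0.46) and Pax2 (-0.42).

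Glia followed the same direction with smaller differences. Of 19 genes of Bergmann glia and astrocytes 16 were called (median -2.35), and of 19 of myelin and oligodendrocytes 13 (-2.25). Slc1a3, the glutamate transporter of Bergmann glia, was at 10.81 and 10.90 in cerebellum and 6.21 and 5.64 in muscle (30.5-fold), and Fabp7 was 40.8-fold higher. Aqp4 (-0.96) and Glul (-0.66), which muscle fibres also express, were not called. Mbp, myelin basic protein, was 10.1-fold higher in cerebellum, Mag 10.8-fold and Mog 6.47-fold. The nerve branches inside muscle carry Schwann cells: of 8 Schwann cell genes none was called higher in muscle and 3 (Mbp, Pllp and Drp2) higher in cerebellum. The call of Drp2 (-1.02) was lost in 4 of 13 alternative analyses, and Pmp22, at 9.37 and 9.95 against 9.14 and 9.26, was not called.

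Vessels and connective tissue separated by type. Of 14 genes common to endothelial cells 11 were called higher in muscle (median 1.35), led by Cdh5 (2.58) and Pecam1 (2.04), while Cldn5, the tight-junction claudin, was at -0.59. Of 11 genes of the brain's vessel barrier 6 were called higher in cerebellum and none in muscle: Spock2 (-4.00), the organic anion transporters Slco1a4 (-3.76) and Slco1c1 (-2.90), Mfsd2a (-2.56), Slc7a5 (-2.39) and the glucose transporter Slc2a1 (-2.35). Of 11 genes of muscle capillaries 7 were called higher in muscle. Cd36 and Lpl, which fibres use too, are counted there as well as in the fatty acid list, and Meox2 (4.17), Aqp1 (4.18) and Gpihbp1 (2.08) are not. Of 17 fibroblast and collagen genes 15 were called higher in muscle, with Postn (4.32), Dpt (3.98) and Col1a1 (2.85) among them, and of 19 basement membrane genes 8.

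The remaining lists held cell types that either dissection could include. In the choroid plexus list 7 of 10 genes were called higher in cerebellum; Ttr, transthyretin, was at 11.60 and 11.81 in cerebellum and 6.07 and 6.08 in muscle (-5.63 ± 0.58), Otx2 at -2.60 and Kl at -1.29, and Aqp1 was called higher in muscle. Of 18 macrophage and microglia genes Lyz2 (2.30) and Mrc1 (1.29) were called higher in muscle and P2ry12 (-1.09), a marker of microglia, higher in cerebellum. These are 11.1% and 5.56% of the list, beside 8.28% and 12.2% of all genes. The call of P2ry12 was lost without WT cerebellum array 95 and without WT muscle array 96, and the microglial genes Tmem119 (0.28) and Cx3cr1 (-0.53) were not called. Of 9 adipocyte genes 4 were called higher in muscle, but Car3 and Fabp4 are shared with fibres and capillaries, and Adipoq was at 5.21 and 4.45 in muscle and 3.86 and 3.70 in cerebellum, a call lost in 4 of 13 alternative analyses. Of 10 satellite cell genes 4 were called, and 2 when centred on housekeeping genes, Des among the 4, which fibres express; Pax7 and Cdh15 (-0.14) were not. None of 3 blood genes was called, and of 30 genes of other organs Ttr was the single call.

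**Figure D3:**
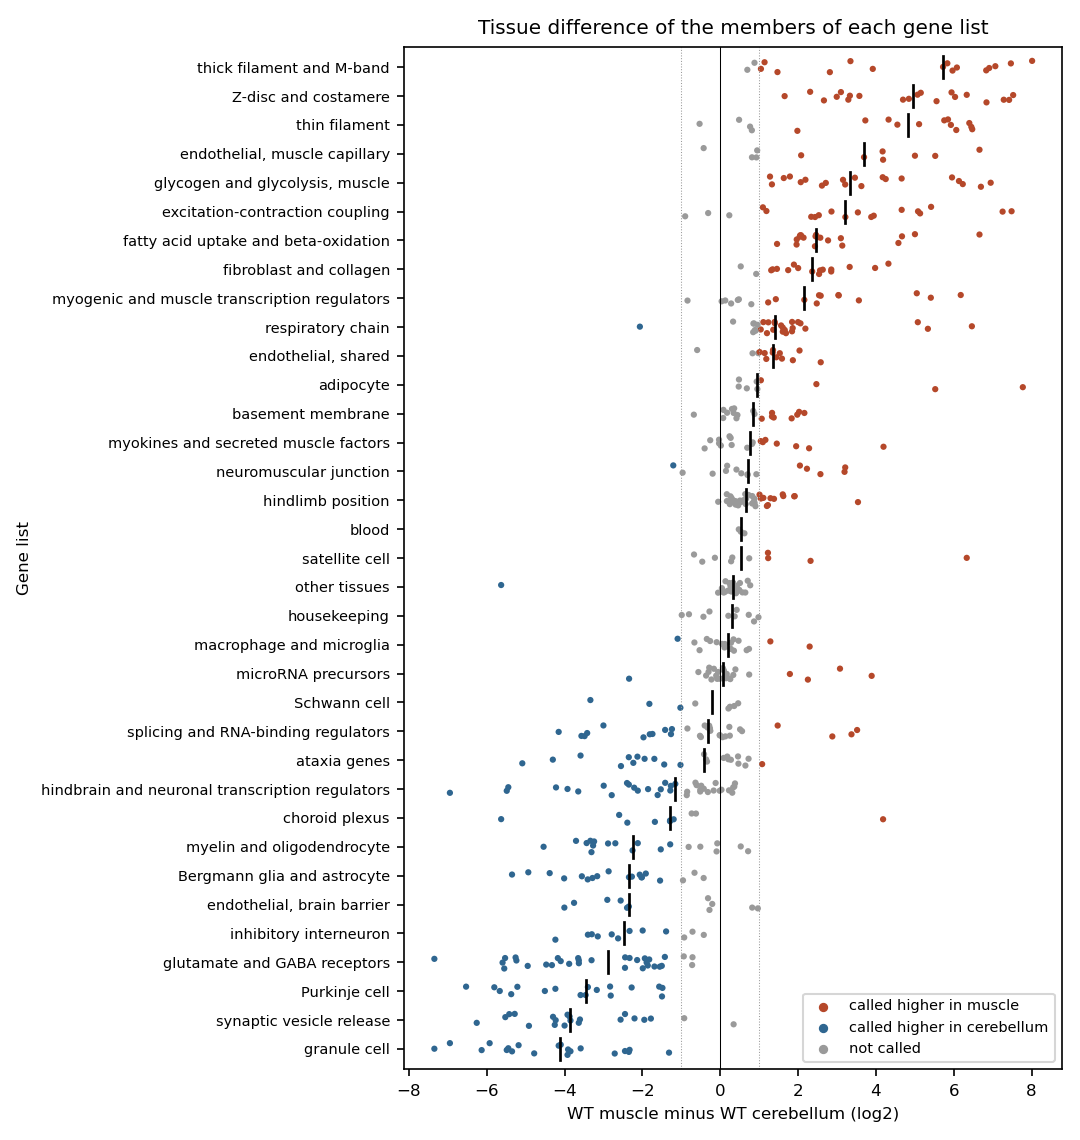
Each point is a gene of a list, placed at its difference between WT muscle and WT cerebellum (log2), red where called higher in muscle, blue where called higher in cerebellum and grey where not called; black bars are list medians and dotted lines mark 2-fold. Lists run from thick filament (median 5.73) at the top to granule cell (median -4.12) at the bottom, and the housekeeping and other-tissue lists lie around their medians, 0.29 and 0.32.

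In many gene families, members were called in opposite directions between the tissues. Whether the members of a family serve the same task was not tested. Of 87 families written down, 86 had at least 2 tested members, and in 44 of them at least 1 member was called higher in muscle and another higher in cerebellum. A further 22 families had calls towards muscle alone, 15 towards cerebellum alone and 6 none. Of the 374 members tested, 110 were called higher in muscle and 117 higher in cerebellum (60.7% together, beside 20.5% of all genes; the families were picked as ones with known muscle and brain forms). Opposite calls were found in 17 of 27 families of energy metabolism, 10 of 15 of calcium handling, 7 of 7 of other channels, 5 of 15 of the cytoskeleton, 4 of 7 of membrane proteins, 1 of 5 of signalling and 0 of 11 of gene expression. The count of 44 was between 44 and 47 in all 13 alternative analyses.

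In energy metabolism several enzymes exchanged one paralogue for another. Among creatine kinases, which pass phosphate between ATP and creatine, Ckm was at 12.09 and 12.18 in muscle and 5.76 and 6.05 in cerebellum, and Ckb at 7.15 and 7.44 in muscle and 11.68 and 11.80 in cerebellum. The mitochondrial forms divided in the same way, Ckmt2 at 6.95 and Ckmt1 at -2.99. All 4 genes of the family were called, and in none did the tissues overlap.
Among enolases Eno3 was at 11.99 and 12.10 in muscle and 5.87 and 5.96 in cerebellum, and Eno2, the neuronal enolase, at 4.96 and 5.47 in muscle and 9.90 and 9.86 in cerebellum. Phosphoglycerate mutase showed the same order, with Pgam2 at 5.95 and Pgam1 at -2.99. Aldolase was uneven: Aldoa, high in both tissues (12.47 and 12.53 against 11.15 and 11.19), differed by 1.33, and Aldoc by -6.22. Phosphofructokinase was divided between Pfkm (2.07) and Pfkp (-2.99), with the liver form Pfkl at -1.12, whose call was lost in 1 alternative analysis. Glycogen phosphorylase was divided between Pygm (4.17) and Pygb (-2.09), and AMP deaminase between Ampd1 (6.70) and Ampd2 (-1.68).

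Transport followed. Slc2a4, the insulin-regulated glucose transporter GLUT4, was at 10.27 and 10.45 in muscle and 5.66 and 5.73 in cerebellum, and Slc2a3, the neuronal GLUT3, at 5.82 and 5.60 in muscle and 8.75 and 8.88 in cerebellum. Of the lactate carriers Slc16a3 (3.40) was called higher in muscle, Slc16a7 (-1.98) higher in cerebellum, and Slc16a1 (0.82) was not called. The ATP/ADP exchangers of mitochondria were Slc25a4 (1.55) and Slc25a5 (-1.29). Pyruvate dehydrogenase kinases were 3 towards muscle (Pdk4, Pdk1 and Pdk2) and 1, Pdk3 (-2.89), towards cerebellum. Of the fatty acid binding proteins Fabp4 (5.52) and Fabp3 (2.43) opposed Fabp7 (-5.35), and of 8 carbonic anhydrases Car3 (7.77) and Car14 (2.04) opposed Car8 (-5.21), Car10, Car2, Car4 and Car11.

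Several steps of calcium handling were divided between paralogues, in 10 of the 15 families. The plasma membrane pumps and sodium-calcium exchangers were among those that were not. The IP3 receptors showed no call, but only Itpr2 (0.21) and Itpr3 (0.03) were tested. Itpr1 and the plasma membrane pump gene Atp2b4 were not matched, so that their differences are not known here. The reticulum pump was Atp2a1 in muscle (7.25) and, in cerebellum, Atp2a2, at 11.01 and 11.08 against 8.21 and 7.61 in muscle (-3.14 ± 0.18), with Atp2a3 (-2.10). The release channel was Ryr1 in muscle and Ryr2 in cerebellum, where Ryr2 was at 8.23 and 8.38 against 5.18 and 5.06. In the voltage-gated channels Cacna1s opposed 7 alpha subunits, led by Cacna1a, the P/Q-type channel of Purkinje cells (-3.59 ± 0.17). The families named for accessory subunits of these channels divided too, though a shared family name need not mean a shared role. They gave Cacnb1 (2.53) against Cacnb4 (-5.31), Cacng1 (3.94) against Cacng7 (-3.19) and 4 others, and Cacna2d1 (2.44) against Cacna2d2 (-2.78). Families with members that hold the channels in place divided as well, Stac3 (3.88) against Stac2 (-1.91) and the junctophilins Jph1 (3.21) against Jph3 (-1.47). Among calcium buffers parvalbumin (Pvalb), which fast fibres and several cerebellar neurons both use, was high in both tissues, at 12.15 and 12.32 in muscle and 10.15 and 10.30 in cerebellum (2.01 ± 0.14), whereas Calb1 (-6.53) and Calb2 (-6.13) were called the other way.

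Ion channels of the surface membrane were divided in each of the 7 families. The Shaker potassium channels Kcna7 (3.29) and Kcna2 (-3.69), the inward rectifiers Kcnj2 (3.34) and Kcnj10 (-3.86), which clears potassium in glia, the sodium channels Scn7a (2.25) and Scn2a (-4.97) and their beta subunits Scn4b (2.47) and Scn2b (-3.88) were such pairs. Among nicotinic receptor subunits Chrna1, Chrnb1 and Chrne opposed the neuronal Chrnb2, at 8.41 and 8.34 in cerebellum and 5.05 and 5.32 in muscle, with Chrna4 (-1.40) and Chrna7 (-1.24), and 10 of 16 subunits were not called. Kcnc4 (1.25) and Cacna2d4 (1.03) were weaker members on the muscle side, and lost their calls in 1 and 3 alternative analyses.

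**Figure D4:**
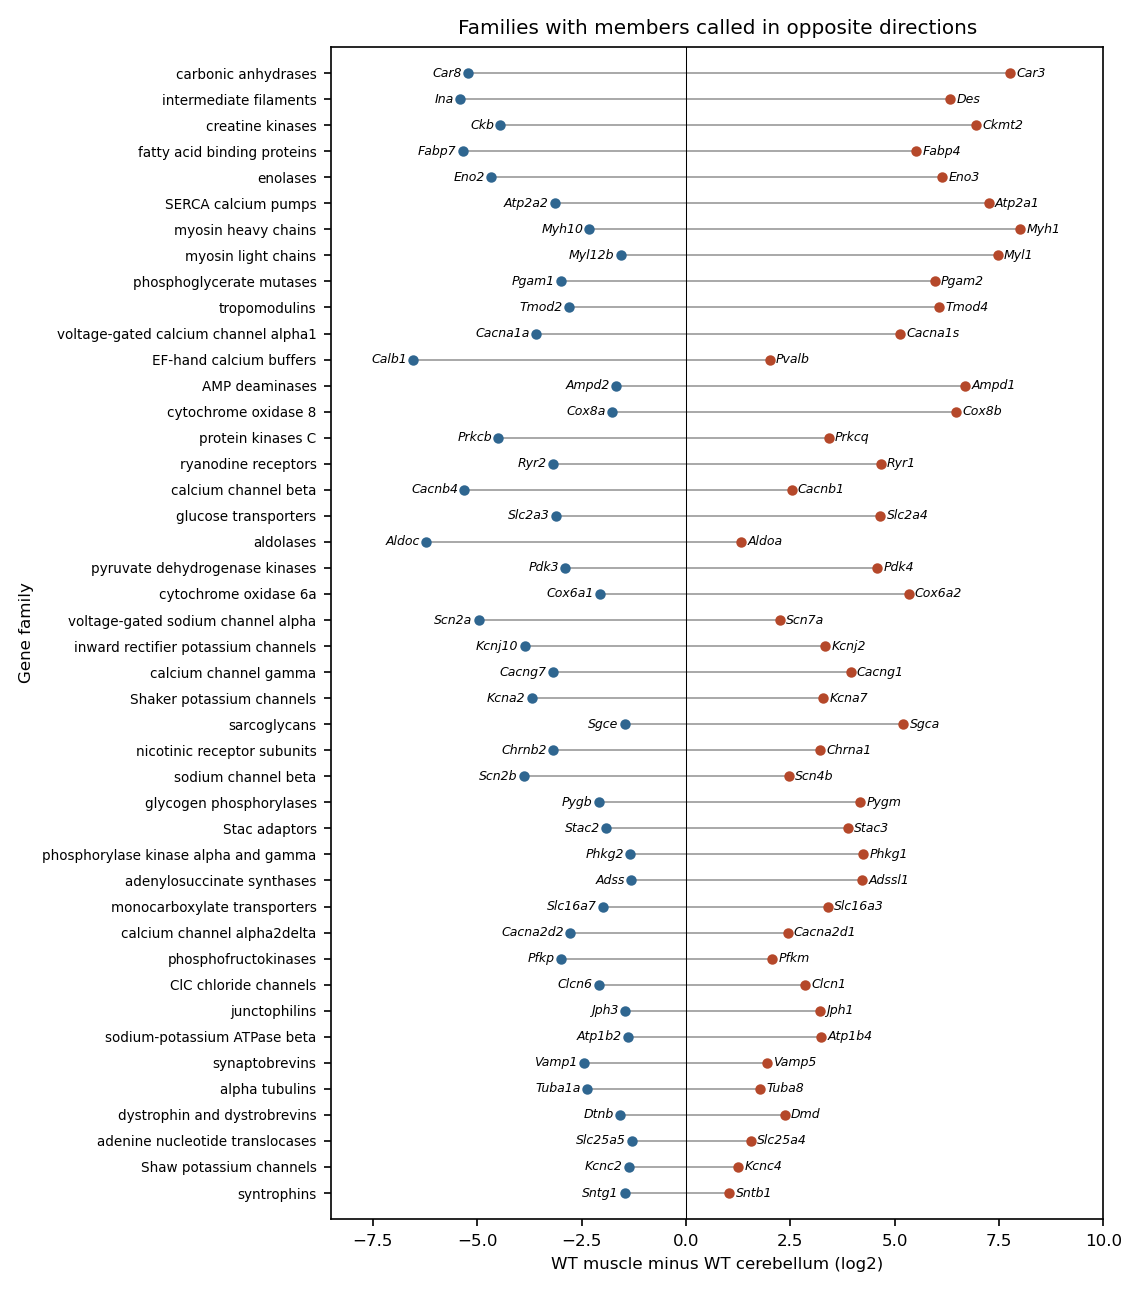
Each line is 1 of the 44 families with opposite calls, joining the member with the largest difference towards cerebellum (blue, left) to the one with the largest difference towards muscle (red, right) on the scale of WT muscle minus WT cerebellum (log2). The widest is that of the carbonic anhydrases, from Car8 at -5.21 to Car3 at 7.77, and the narrowest that of the syntrophins, from Sntg1 at -1.47 to Sntb1 at 1.04.

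In the cytoskeleton 5 of 15 families had opposite calls. Des (6.33) opposed the neuronal filament proteins Ina (-5.42) and Nefl (-4.90), with Ina at 10.71 and 10.70 in cerebellum and 5.31 and 5.27 in muscle. Tmod4 (6.06) opposed Tmod2 (-2.79), which cap actin filaments, and Myh10, a non-muscle myosin (-2.31), opposed the fast myosins. Tuba8 (1.78) opposed Tuba1a (-2.37), and 5 of 6 beta tubulins were called higher in cerebellum, Tubb4a most (-5.57). In the dystrophin complex Dmd (2.37) and the sarcoglycans Sgca (5.21), Sgcd (3.67) and Sgcb (1.34) opposed the dystrobrevin Dtnb (-1.58) and Sgce (-1.46). The caveolins, which form pits in the membrane, were higher in muscle in 3 of 3 genes, Cav1 most (3.43).

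Some families known for a muscle or brain form showed no exchange here. The translation factors Eef1a1 (-0.79) and Eef1a2, whose product replaces that of Eef1a1 in neurons and muscle, were not called; Eef1a2 was at 10.13 and 10.04 in muscle and 9.82 and 9.89 in cerebellum (0.24 ± 0.14, adjusted p = 0.181). Lactate dehydrogenase A was higher in muscle (Ldha, 2.19), and Ldhb (-0.88) did not reach 2-fold. Ppargc1a, a coactivator of mitochondrial genes, differed by 0.64, and the calcineurin subunits Ppp3ca (-0.90) and Ppp3cc (0.96) stayed short of 2-fold on either side.

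Among 31 splicing and RNA-binding regulators 4 (12.9%, beside 8.28% of all genes) were called higher in muscle and 11 (35.5%, beside 12.2%) higher in cerebellum. Those called higher in muscle were Rbm24 (3.52), Rbm38 (3.37), Rbm20 (2.88), which acts in the splicing of titin, and Mbnl1 (1.48). Mbnl1 was high in both tissues, at 10.34 and 10.42 in muscle and 8.94 and 8.86 in cerebellum. Rbfox3, known as the neuronal marker NeuN, was at 9.83 and 9.79 in cerebellum and 5.56 and 5.76 in muscle (17.8-fold), and Celf4 (-3.57), the Hu proteins Elavl3 (-3.48) and Elavl4 (-3.42) and the neuronal splicing factor Nova1 followed. Their relatives Celf1 (-0.52), Rbfox1 (-0.01), Rbfox2 (-0.25) and Elavl1 (-0.28) were not called.

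MicroRNA precursor genes gave 5 calls among 25, a share close to the 20.5% of all genes. The precursors of the muscle microRNAs miR-1 and miR-133, Mir133a-1 (3.89), Mir1a-2 (3.08), Mir133a-2 (2.25) and Mir1a-1 (1.79), were called higher in muscle. Mir133a-1 was at 6.03 and 6.55 in muscle and 2.44 and 2.35 in cerebellum, while the other 3 were low in both tissues by the olfactory receptor levels. Mir206, known from slow fibres, was at 1.55 and 1.84 against 1.06 and 1.55 (0.39, adjusted p = 0.191). The single precursor called higher in cerebellum was Mir9-1, one of 3 genes for the neural microRNA miR-9, at 7.15 and 6.78 in cerebellum and 4.56 and 4.69 in muscle (5.07-fold), and Mir9-3 (-0.28) was not called. The mature miR-9-5p of Mir9-1 is printed 5′ to 3′ from RefSeq (GRCm38.p6) as the microRNA of that gene, with its seed, bases 2 to 8, in capitals.
mmu-miR-9-5p, chr3:88215613-88215635 (plus strand): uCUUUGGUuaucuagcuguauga
The array reads the precursor and gives no level of this mature RNA.

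Of 23 genes linked to inherited ataxias 11 were called higher in cerebellum and 1, Mme, higher in muscle (1.08). Fgf14, a partner of neuronal sodium channels, was at 9.43 and 9.30 in cerebellum and 4.36 and 4.20 in muscle (33.9-fold). Elovl4 (-4.30), which makes very long fatty acids, Cacna1a (-3.59), Cacna1g (-2.55) and Ppp2r2b (-2.35) came next. Tbp itself, the gene altered in SCA17, was at 7.85 and 7.71 in cerebellum and 6.70 and 6.81 in muscle, a difference of -1.02 ± 0.12 (2.03-fold; adjusted p = 9.80e-05). The pairs did not overlap, but the call rests on the 2-fold line and was lost in 4 of 13 alternative analyses, as was that of its relative Tbpl1. Atxn1 (0.47), Atxn2 (-0.36), Atxn3 (-0.34) and Atxn7 (0.46), other ataxia genes with a polyglutamine tract, were not called.

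Different probe sets of a gene can read different transcripts, and 999 genes had several. None of these genes had 1 probe set called higher in muscle and another called higher in cerebellum. In 27 genes 2 probe sets had opposite signs with an unadjusted p under 0.05 each, and in 17 with an adjusted p under 0.05. The median gap between the probe sets of a gene was 0.22, and 39 genes had a gap of at least 2. Of 53 genes of the lists and families with several probe sets, 13 had probe sets that differed in call. For Hk1, hexokinase 1, the brighter set, which stands for the gene in the counts above, was at 9.76 and 9.92 in muscle and 9.78 and 9.45 in cerebellum (0.22), and the other at 6.03 and 5.84 against 8.38 and 8.55 (-2.53). For Zic5 the values were -0.17 and -3.11, for Slc8a1 -0.91 and -2.53, and for the tropomyosin Tpm3 -0.53 for the brightest set and 1.53 for another. The triadin gene Trdn had 19 probe sets, all called higher in muscle, with differences from 4.11 to 8.92. Camta1, a transcription factor outside the lists that is named because of its values, had the widest gap of the genes given here. Its brightest set differed by 0.78 and the other 3 by -3.41 to -4.90.

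The tissue difference was also read in the KI arrays, which entered the WT fit through the pooled spread and through the choice of the brightest probe set over the 8 arrays. Of the 4082 WT calls 4074 (99.8%) had the same sign between the KI tissues, as had 82.3% of all genes, and 3376 (82.7%) were also at least 2-fold there. The median difference of genes called higher in muscle was 1.54 in WT and 1.53 in KI, and that of genes called higher in cerebellum -1.75 and -1.61. Over all genes the slope of the KI on the WT difference was 0.919 and r was 0.960. The test of a difference between the genotypes called 3 of 19938 genes (0.015%), each with an adjusted p of 0.0476. Of the genes in the lists it called Casq2, the slow and cardiac calsequestrin, which differed by 1.19 between the WT tissues (muscle 7.57 and 7.57, cerebellum 6.43 and 6.33) and by 3.31 between the KI tissues (muscle 9.12 and 9.42, cerebellum 5.74 and 6.18). The other 2 are named because the test called them: Serpinb1a (-1.11 in WT, 1.80 in KI) and Calr4 (-0.93 in WT, 0.50 in KI). The count was 21 with a filter on low values and 0 at an adjusted p under 0.01, so that it depends on the analysis. Leaving out either WT cerebellum array, 95 or 96, lost the calls of all 3 genes. Leaving out either WT muscle array kept that of Serpinb1a and lost those of Casq2 and Calr4, and without muscle array 96 other genes were called. In these 4 fits the WT minus the KI difference ran from -2.60 to -3.21 for Serpinb1a, from -2.07 to -2.17 for Casq2 and from -1.40 to -1.46 for Calr4. The adjusted p of Casq2 ran from 0.00539 to 0.304 in limma over 12 alternatives, and it was called in 5 of them.

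**Figure D5:**
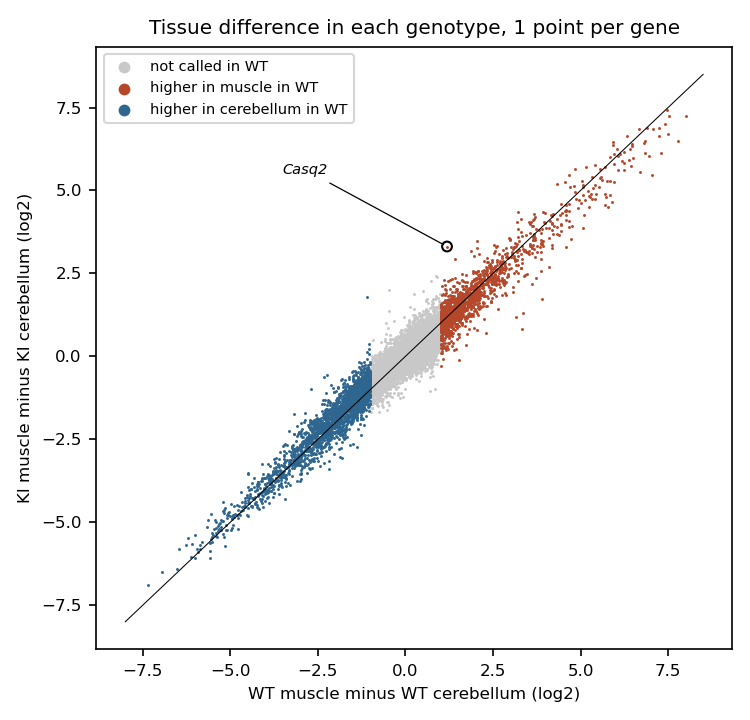
Each point is a gene, with its difference between muscle and cerebellum (log2) in WT on the horizontal axis and in KI on the vertical axis; red and blue mark the genes called higher in muscle and in cerebellum in WT, and the line is equality. The points follow the line over the whole range, and Casq2, circled, lies above it at 1.19 in WT and 3.31 in KI.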

How the data were processed

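Biotin-labelled material from total RNA was read on the Affymetrix Mouse Gene 1.0 ST platform, per the labels' protocols. The deposited values are log2 expression levels; the submitters' processing notes name GCOS and RMA for them. No source used here gives versions, filters, a genome build or the set of arrays that RMA took together. Of 35556 probe sets, 21789 carried 1 symbol in the platform annotation; the brightest per gene by its mean over the 8 arrays was used, which gave 19938 genes with no filter on level.

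A mean for each of the 4 groups of 2 arrays was fitted with limma 3.58.1 in R 4.3.3 (4 residual and 5.11 prior degrees of freedom), and the contrast was WT muscle minus WT cerebellum. Adjusted p-values are Benjamini-Hochberg over all genes of that limma fit; the procedure was tested on simulated data. Errors are the fit's standard errors; precision is limited by having 2 arrays a group. No label says whether muscle and cerebellum arrays of the same number came from one animal, and the main fit did not pair them. Over genes, deviations from the group means correlated between the tissues with r = -0.0993 in WT and 0.0545 in KI. With 2 arrays a group this cannot decide whether animals were shared.

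Lists (658 of 725 written entries matched) and families (374 of 405) were written with earlier results of these data known, and their counts are descriptions. Named genes were the 12 largest called differences each way, members of lists or families, genes with discordant probe sets and genes called in the test between genotypes; those outside the rule are marked. Promoter and microRNA sequences are from RefSeq. The closing section gives 13 alternative analyses.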

Additional observations from a re-analysis of the deposited data

Results flagged for a closer look

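For 3 genes the muscle minus cerebellum difference depended on genotype in the limma fit of 8 arrays, with an adjusted p of 0.0476 each. The WT minus the KI difference was -2.91 ± 0.30 (log2 ± SE) for Serpinb1a, -2.12 ± 0.23 for Casq2 and -1.43 ± 0.16 for Calr4. Serpinb1a was lower in both WT than in both KI muscle arrays (7.73 and 7.83 in KI), with 6.29 and 6.11 in WT cerebellum and 6.20 and 5.77 in KI cerebellum. Casq2 was higher in KI than in WT muscle and lower in KI than in WT cerebellum on each array. Calr4 was at 2.99 and 2.93 in WT muscle and 3.73 and 3.83 in KI muscle, all low on the scale of the arrays. Over the alternatives in which the test could be run, Serpinb1a was called in 9 of 12, Casq2 in 5 of 12 and Calr4 in 5 of 11, with adjusted p from 0.00539 to 0.304 for Casq2.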

How the results depend on the processing

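The WT calls numbered 4018 to 4391 under the 13 alternatives, and 44 to 47 families had opposite calls. Without 1 WT array at a time the calls were 4018 to 4222. The count of genes with a difference between genotypes moved from 3 to 21 with a filter on low values, 37 when centred on housekeeping genes, 59 with trend and robust variances and 0 at an adjusted p under 0.01, and was 0 to 3 without 1 WT array at a time. With the replicate number as a block the WT calls numbered 4085 and the block changed no call of a followed gene. Whether arrays of the same number came from one animal is not stated in the labels. Of 529 called genes that were followed one by one, 47 lost the call in at least 1 alternative. Centring on housekeeping genes gave 1124 calls higher in muscle and 3267 higher in cerebellum. Averaging the probe sets of a gene turned Hk1 from 0.22 to -1.15 (adjusted p = 1.74e-05 in limma), by construction, since its probe sets differ. A mean over probe sets has no test of opposite probe sets, and the 4 WT arrays alone give no test between genotypes. With 2 arrays per tissue a left-out array leaves 1, assumed to vary like the other groups. No detection calls were used here, so that folds against low values have no firm lower end.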
